A study of Canis lupus familiaris with 34 samples.

Results

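Caveolae are small flask-shaped pits of the plasma membrane that are rich in cholesterol and sphingolipids. They are built by caveolins, hairpin proteins that sit in the inner leaflet of the membrane, together with cavins, which coat the pit from the cytoplasm, and EHD2, an ATPase that forms a ring at the neck and holds the pit at the surface. Caveolae are abundant in endothelial cells, fibroblasts, smooth muscle and fat cells, where they buffer membrane tension, take part in uptake and transport, and host receptors and enzymes of signaling, whereas resting lymphocytes are known for having few or none.

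The family was taken as 6 genes, CAV1, CAV2, CAVIN1, CAVIN2, CAVIN3 and EHD2. These genes were chosen from earlier results on the same arrays, by values that set tumor types apart, so every level by tumor type is given here as a description. Standard errors there give the precision of a mean difference under the spread between samples. Limma calls of members in those contrasts are counted beside the share of all probe sets called, with nothing read from them. The Affymetrix Canine_2 array measures a gene through sets of short probes, some genes through several. A probe set was kept for a member where the array annotation gave it exactly 1 gene symbol and that symbol was the member's. This found 9 of 42860 probe sets and 4 of the 6 genes: CAV1 with 3 probe sets, CAV2 with 2, CAVIN3 with 2 and EHD2 with 2. CAVIN1 and CAVIN2 had none under this rule and were not analysed here. For each gene, the probe set with the highest mean over all arrays stands for it below unless another is named.

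The study profiled canine hemangiosarcoma, a malignant tumor of blood vessel-forming cells, against other lesions on 34 arrays of dog cells. The hemangiosarcoma arrays came from 10 cultured lines, of which 6 were from golden retrievers (ChadG4, ChadG6, ChadG8, Frog, Journey and Tucker) and 4 from other dogs: Joey, a Rottweiler, DD1, a Golden Retriever x Great Pyrenees cross, ChadP9, a Portuguese Water Dog, and Dal4, labelled Dalmation. The other cultured cells were 5 osteosarcoma lines from golden retrievers, a bone tumor, and 3 cultures of splenic hematoma, a non-malignant blood-filled lesion, from Pippin, a golden retriever, Baxter, a Standard Poodle, and Kylie, a Keeshond. The remaining 16 arrays held primary tumor cells without culture: 1 acute lymphoblastic leukemia, 2 chronic lymphocytic leukemias, 6 T-zone lymphomas, 6 diffuse large B cell lymphomas and 1 marginal zone lymphoma, from golden retrievers apart from 1 golden retriever mix. The labels give 1 array per dog and no age, no agent was applied, and hemangiosarcoma and hematoma tissue was grown under conditions meant to favor endothelial cells. Values are log2 intensities, so a difference of 1 is a doubling of signal, and they ranged from 2.03 to 14.98 with array medians of 5.57 to 5.77. With 1 array per dog, the p values set a difference against the spread between these samples.

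The labelled cell kinds were checked against marker genes. In the hemangiosarcoma lines, 2 of 9 endothelial markers (KDR and CLDN5) averaged above the array median, and the same 2 did so in the osteosarcoma lines and in the hematoma cultures. PECAM1, CDH5, VWF, TEK, TIE1, EMCN and ESAM did not. The mean log2 level of the endothelial list was 4.72 to 5.10 in hemangiosarcoma lines, 4.75 to 5.12 in osteosarcoma lines and 4.64 to 4.92 in hematoma cultures. All 11 of 11 mural and fibroblast markers averaged above the median in each of these cultured groups, with list means of 10.11 to 11.54 in hemangiosarcoma lines, 10.43 to 12.17 in osteosarcoma lines and 11.09 to 11.81 in hematoma cultures. Of the 6 osteoblast markers with a probe set, 2 averaged above the median in osteosarcoma lines. Of 9 lymphocyte markers, 8 did so in the lymphoid tumors and 1 in the cultured cells. The actin control, whose 3′ signal exceeds its 5′ signal by more where RNA is shorter, differed by 1.31 to 2.52 in hemangiosarcoma lines, 1.80 to 3.27 in osteosarcoma lines, 0.36 to 1.74 in hematoma cultures and −0.30 to 4.03 in lymphoid tumors on the log2 scale.

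CAV1, the caveolin without which caveolae do not form in most cells, was at a high level in every cultured sample. In hemangiosarcoma lines it ran from 12.00 to 13.54 with a median of 13.17. The osteosarcoma lines had 12.85 (OSCA20), 12.95 (OSCA23), 12.86 (OSCA59), 13.41 (OSCA75) and 12.13 (OSCA71). The hematoma cultures had 11.88 (Pippin), 13.22 (Baxter) and 13.30 (Kylie). The 3 kinds of cultured cell overlapped, and each held a sample near 12 and at least 1 above 13. Among the hemangiosarcoma lines, Tucker (12.00), Joey (12.13) and Journey (12.57) stood below the other 7, which lay at 13.02 or more. The lymphoid tumors lay between 3.72 and 4.54 except for Snuggles, a diffuse large B cell lymphoma, at 7.98. By mean level the order was hemangiosarcoma, osteosarcoma and hematoma at 12.98, 12.84 and 12.80, followed by diffuse large B cell lymphoma at 4.71, chronic lymphocytic leukemia at 4.14, T-zone lymphoma at 4.11, acute lymphoblastic leukemia at 4.03 and marginal zone lymphoma at 3.73. Hematoma and diffuse large B cell lymphoma were the only neighbors with more than 1 array each whose arrays did not overlap.

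CAV2, which needs CAV1 to leave the Golgi apparatus and forms mixed oligomers with it, ran from 11.32 to 12.52 with a median of 12.27 in hemangiosarcoma lines. It was 11.51, 10.92, 11.57, 11.36 and 9.57 in the osteosarcoma lines OSCA20, OSCA23, OSCA59, OSCA75 and OSCA71, and 11.56 (Pippin), 12.41 (Baxter) and 12.56 (Kylie) in hematoma cultures. The osteosarcoma lines were low: their highest value lay below 7 of the 10 hemangiosarcoma lines, and OSCA71 was the lowest of all cultured samples. The lymphoid tumors lay between 3.58 and 4.66, with Snuggles again above them at 5.90. By mean level the order was hematoma, hemangiosarcoma and osteosarcoma at 12.18, 12.04 and 10.99, then diffuse large B cell lymphoma at 4.48, marginal zone lymphoma at 4.37, chronic lymphocytic leukemia at 4.25, T-zone lymphoma at 4.11 and acute lymphoblastic leukemia at 3.86. Hemangiosarcoma overlapped both hematoma and osteosarcoma, and the lymphoid groups with more than 1 array overlapped each other.

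CAVIN3, a cavin that binds cavin 1 and protein kinase C delta, ran from 10.76 to 11.77 with a median of 11.37 in hemangiosarcoma lines. The osteosarcoma lines had 11.23 (OSCA20), 11.12 (OSCA23), 10.28 (OSCA59), 10.82 (OSCA75) and 10.71 (OSCA71), and the hematoma cultures 11.38 (Pippin), 11.49 (Baxter) and 11.58 (Kylie). The hematoma cultures lay close together inside the hemangiosarcoma range. The lymphoid tumors ran from 4.58 in the acute lymphoblastic leukemia to 6.89 in the T-zone lymphoma Shilo, with a median of 5.56, and 7 of 16 were above their array's median. By mean level the order was hematoma at 11.48, hemangiosarcoma at 11.34 and osteosarcoma at 10.83, then T-zone lymphoma at 6.03, diffuse large B cell lymphoma at 5.69, marginal zone lymphoma at 5.41, chronic lymphocytic leukemia at 5.31 and acute lymphoblastic leukemia at 4.58. The groups with more than 1 array overlapped their neighbors, apart from osteosarcoma with T-zone lymphoma.

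EHD2 varied least between cultured and lymphoid cells. It ran from 7.62 to 9.32 with a median of 8.37 in hemangiosarcoma lines. The osteosarcoma lines had 9.17 (OSCA20), 8.60 (OSCA23), 8.79 (OSCA59), 8.93 (OSCA75) and 8.09 (OSCA71), and the hematoma cultures 8.24 (Pippin), 8.48 (Baxter) and 8.04 (Kylie). The lymphoid tumors ran from 6.68 to 8.19 with a median of 7.15, and all 16 were above their array's median. The acute lymphoblastic leukemia, at 8.19, lay among the cultured cells. By mean level the order was osteosarcoma at 8.72, hemangiosarcoma at 8.39, hematoma at 8.25 and acute lymphoblastic leukemia at 8.19, then chronic lymphocytic leukemia at 7.37, T-zone lymphoma at 7.25, diffuse large B cell lymphoma at 6.96 and marginal zone lymphoma at 6.68. Apart from the groups of 1 array, hematoma and chronic lymphocytic leukemia were the neighbors without overlap.

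**Figure D1:**
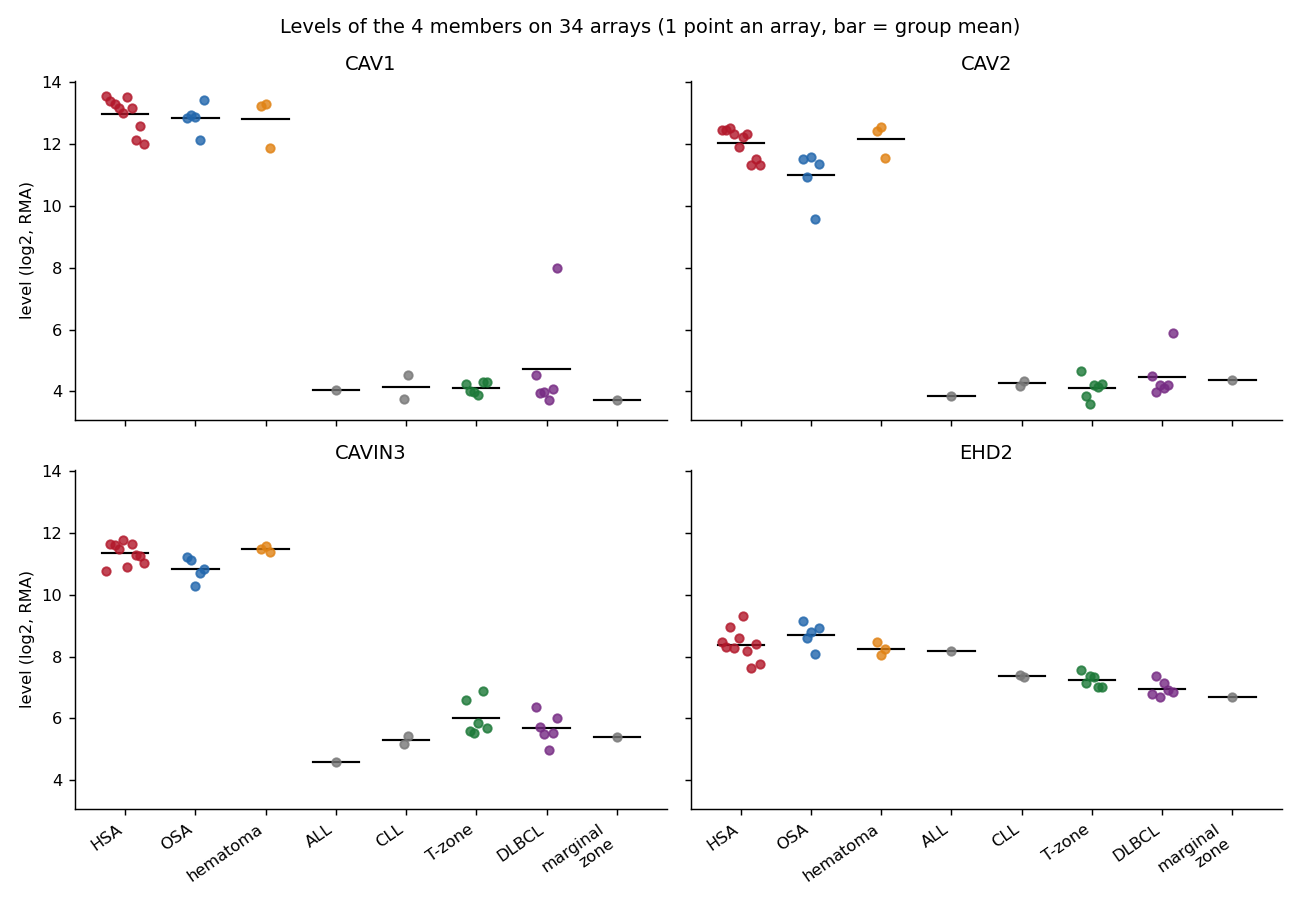
Log2 level (vertical axis) of the representative probe set of CAV1, CAV2, CAVIN3 and EHD2 on all 34 arrays, by tumor type (HSA, hemangiosarcoma, OSA, osteosarcoma, ALL and CLL, the acute and chronic leukemias, DLBCL, the large B cell lymphomas); each point is an array and each bar a group mean. The 18 cultured samples lie above 9.5 in CAV1, CAV2 and CAVIN3, the lymphoma Snuggles lies alone at 7.98 in CAV1, and EHD2 overlaps between cultured and lymphoid samples.

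The probe sets of a gene followed each other to different degrees, which bears on how far each gene can be read. Over the 10 hemangiosarcoma lines, the CAV1 probe sets had r of 0.95 to 0.99 with each other and the CAV2 pair 0.92, while the CAVIN3 pair had 0.69 and the EHD2 pair 0.65. Over the 18 cultured samples these were 0.94 to 0.97 for CAV1, 0.83 for CAV2, 0.07 for CAVIN3 and 0.59 for EHD2. These correlations are descriptions over arrays that share tumor type and processing. The second CAVIN3 probe set lay between 9.55 and 10.77 in all cultured samples and between 4.34 and 5.80 in all lymphoid ones. The second EHD2 probe set lay between 5.92 and 8.23 in cultured samples and between 3.62 and 5.48 in lymphoid ones, with no overlap, unlike the representative one.

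The question of how the family stood in hemangiosarcoma against the other cultured sarcoma was read from 10 hemangiosarcoma and 5 osteosarcoma lines. The mean CAV2 signal was higher in hemangiosarcoma with both probe sets, while the mean CAV1 signal of the groups lay closer together than the lines within either. The representative CAV2 probe set averaged 12.04 ± 0.48 in hemangiosarcoma lines (SD, n = 10) and 10.99 ± 0.83 in osteosarcoma lines (SD, n = 5), a difference of 1.05 on the log2 scale (SE 0.31) or 2.07-fold. The second CAV2 probe set, whose suffix marks probes that can match more than 1 transcript, ran from 7.21 to 10.13 with a median of 9.72 in hemangiosarcoma lines, against 7.62 (OSCA20), 7.09 (OSCA23), 6.59 (OSCA59), 7.07 (OSCA75) and 6.82 (OSCA71) in osteosarcoma lines. Tucker, at 7.21, was the hemangiosarcoma line that overlapped the osteosarcoma lines. The mean difference there was 2.21 (SE 0.42) or 4.62-fold. The same suffix is on a CAV1 probe set, the second CAVIN3 probe set and both EHD2 probe sets. CAV1 differed by 0.14 (SE 0.27), and its other probe sets by 0.17 and 0.26.

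The CAVIN3 probe sets pointed in opposite directions between these lines. The representative one was 0.51 higher in hemangiosarcoma (SE 0.19) and the second lower, with a difference of −0.30 (SE 0.16). EHD2 had −0.32 (SE 0.25), and its second probe set −0.61 (SE 0.28). By limma at an adjusted p of 0.05, 2 of the 9 member probe sets were called, both of CAV2, and 27.8% of the 22857 probe sets tested were called, so nothing is read from the members' count. Without the osteosarcoma line OSCA71 the CAV2 difference was 0.69, and with golden retriever lines alone, 6 against 5, it was 1.11. The representative CAV2 probe set was not called in either setting. The actin 3′ to 5′ difference overlapped between the lines but reached 2.52 in hemangiosarcoma and 3.27 in osteosarcoma. The hybridization controls averaged 9.51 to 9.98 in hemangiosarcoma and 10.26 to 11.01 in osteosarcoma lines, with no overlap, and the part of either measure in these differences was not tested.

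**Figure D2:**
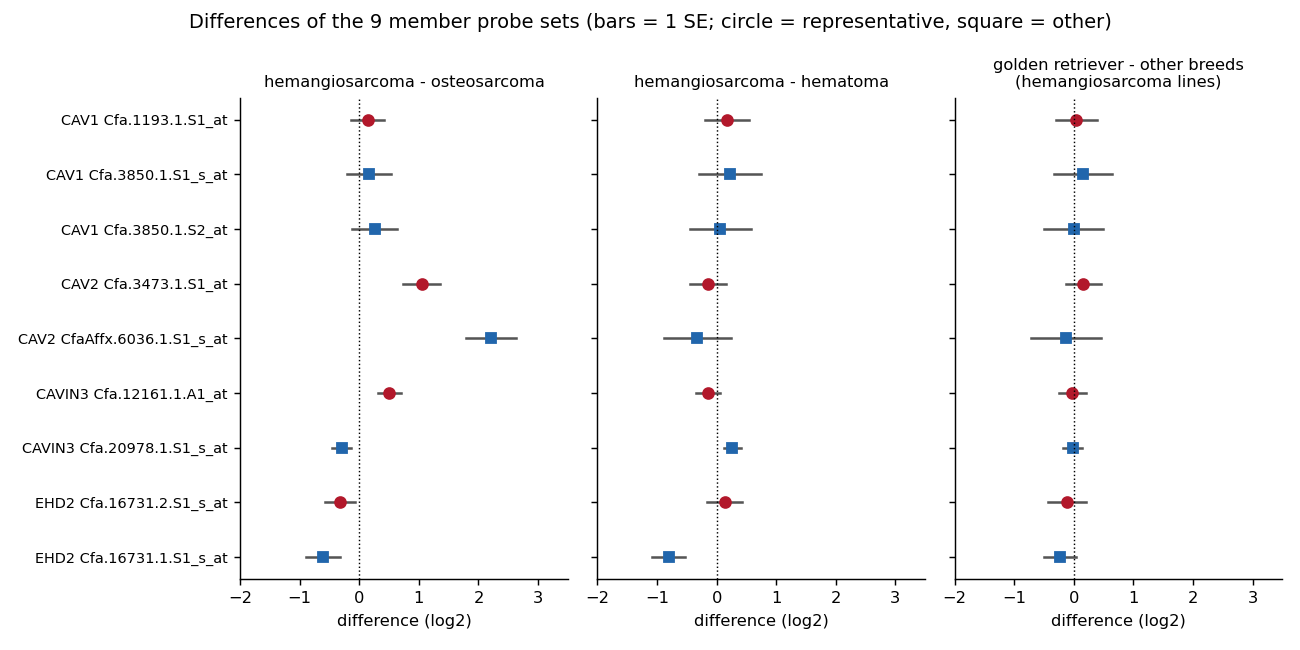
Difference in mean log2 level (horizontal axis) of the 9 member probe sets between hemangiosarcoma and osteosarcoma lines (left), hemangiosarcoma lines and hematoma cultures (middle), and golden retriever and other hemangiosarcoma lines (right), with bars of 1 SE to each side; circles are representative probe sets and squares the others. The CAV2 probe sets lie to the right of 0 on the left, at 1.05 and 2.21, and the representative probe sets on the right lie between −0.11 and 0.16.

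Genes that work beside caveolae were read from lists. Between hemangiosarcoma and osteosarcoma lines 27.8% of all probe sets tested were called, so nothing is read from the counts of calls per list. Of 9 genes for accessory proteins, which bend, tether or phosphorylate the caveolar coat, 5 were tested between hemangiosarcoma and osteosarcoma lines, with a median difference of −0.02 against 0.03 over all probe sets tested. Here 1 rose, SRC, the kinase that phosphorylates CAV1 (5.94 ± 0.42 in hemangiosarcoma, n = 10, and 5.11 ± 0.83 in osteosarcoma, n = 5; SD; difference 0.84, SE 0.30, limma adjusted p = 0.0464). The osteosarcoma mean of SRC lay below the array medians of those lines, 5.63 to 5.69. SRC passed the filter largely through the hemangiosarcoma lines, so nothing is read from its p value. PACSIN3, a membrane-bending F-BAR protein, fell (8.88 ± 0.31 in hemangiosarcoma and 9.54 ± 0.39 in osteosarcoma, difference −0.65, SE 0.19, limma adjusted p = 0.0173). Of 5 scaffolds of other cholesterol-rich membrane domains, all were tested, with a median of −0.77. The endoplasmic reticulum proteins ERLIN1 and ERLIN2 rose, both by 1.09 (SE 0.29 and 0.36, adjusted p = 0.0116 and 0.0328), and the flotillin FLOT2 fell by 0.88 (SE 0.22, adjusted p = 0.00788).

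Of 9 receptors, channels and enzymes known to reside in or be regulated by caveolae, 5 were tested between the same lines, with a median difference of 0.02. The share of 27.8% called over all probe sets tested stands beside this list and those that follow, and nothing is read from their counts. The type I TGF-beta receptor TGFBR1 averaged 7.75 ± 0.54 in hemangiosarcoma and 5.32 ± 0.99 in osteosarcoma (difference 2.43, SE 0.36, adjusted p = 0.000305), and the calcium-permeable channel TRPC1 averaged 6.34 ± 0.49 and 4.73 ± 0.16 in the same order (difference 1.61, SE 0.22, adjusted p = 0.00018). Both osteosarcoma means lay below the array medians of those lines, 5.63 to 5.69. TGFBR1 and TRPC1 passed the filter largely through the hemangiosarcoma lines, so nothing is read from their p values. The growth factor receptors PDGFRB and EGFR were lower in hemangiosarcoma, by differences of −2.46 (SE 0.51, adjusted p = 0.00281) and −1.71 (SE 0.35, adjusted p = 0.00248). PDGFRB is also on the mural and fibroblast marker list, of which 1 gene rose and 3 fell among 11 tested. Of the 9 genes of the YAP and TAZ pathway, which answers to cell stretch and matrix stiffness and acts on several caveolar genes, all were tested with a median of 0.05. One rose, the target ANKRD1, a muscle ankyrin repeat protein, at 9.47 ± 2.40 in hemangiosarcoma and 5.32 ± 1.06 in osteosarcoma (difference 4.15, SE 1.04, adjusted p = 0.00842). The osteosarcoma mean of ANKRD1 also lay below the array medians of those lines, so nothing is read from its p value.

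CAV2 and CAV1 lie side by side on chromosome 14 of the dog assembly UU_Cfam_GSD_1.0, between TES, a focal adhesion protein next to CAV2, and MET, the hepatocyte growth factor receptor next to CAV1. The neighbors were read to see whether the CAV2 difference stood alone there. TES averaged 9.53 ± 0.36 in hemangiosarcoma lines (n = 10) and 8.50 ± 0.39 in osteosarcoma lines (n = 5; SD), a difference of 1.03 (SE 0.20, limma adjusted p = 0.0019). In this contrast 27.8% of all probe sets tested were called, so no pattern of the region is read from TES. MET differed by 0.42 (SE 0.48, adjusted p = 0.545) and CAPZA2, an actin capping protein beyond it, by 0.55 (SE 0.22, adjusted p = 0.0733). TFEC, a transcription factor beyond TES, was at 3.84 in hemangiosarcoma and 3.71 in osteosarcoma and did not pass the filter on low values.

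Against the non-malignant splenic hematoma cultures, the means of the representative probe sets differed by 0.18 or less. CAV1 averaged 12.98 ± 0.56 in hemangiosarcoma lines (SD, n = 10) and 12.80 ± 0.80 in hematoma cultures (SD, n = 3), a difference of 0.18 (SE 0.37) that became −0.28 without Pippin. CAV2 had a difference of −0.14 (SE 0.30), CAVIN3 −0.14 (SE 0.21) and EHD2 0.14 (SE 0.29). The second CAV2 probe set had −0.32 (SE 0.56), and the second CAVIN3 probe set had 0.27 (SE 0.15), opposite in sign to the representative one. The second EHD2 probe set ran from 5.92 to 7.43 with a median of 6.51 in hemangiosarcoma lines. It was 6.87 (Pippin), 7.86 (Baxter) and 7.27 (Kylie) in hematoma cultures, a difference of −0.81 (SE 0.28), also opposite in sign to the representative one. By limma at an adjusted p of 0.1, 0 of 9 member probe sets were called, beside 0.266% of the 23292 tested, or 62, with 2259 at an unadjusted p under 0.05. Pippin was the lowest hematoma culture in all 3 CAV1 probe sets and both CAV2 probe sets. With 3 hematoma cultures, 1 sample moved the count over all probe sets a great deal: 200 were called without Pippin and 7 without Baxter.

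Of the listed genes around caveolae, 1 was called between hemangiosarcoma lines and hematoma cultures, beside 0.266% of all probe sets tested. It was PDGFRB, which the study itself lists as lower in hemangiosarcoma in this comparison, so the call restates a published result. PDGFRB, the platelet-derived growth factor receptor of mural cells, averaged 6.22 ± 0.84 in hemangiosarcoma lines (n = 10) and 8.66 ± 0.46 in hematoma cultures (n = 3; SD), a difference of −2.44 (SE 0.47, limma adjusted p = 0.0734), and it is 1 of the 5 tested among the receptors and enzymes of caveolae. None of the 5 accessory, 5 scaffold and 9 YAP and TAZ genes tested was called, and their median differences were −0.15, −0.21 and −0.36, beside 0.02 over all probe sets tested.

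Between cultured cells and lymphoid tumors the means of CAV1, CAV2 and CAVIN3 lay much farther apart than the cultured samples did among themselves, which was not so for EHD2 or the second CAV2 probe set. CAV1 averaged 12.91 ± 0.54 in the 18 cultured samples and 4.31 ± 1.01 in the 16 lymphoid ones (SD), a difference of 8.60 on the log2 scale (SE 0.27). In the lymphoid tumors CAV1 was above the array median on 1 of 16 arrays, so no fold is given against that level. Its other probe sets differed by 8.36 and 8.45. CAV2 averaged 11.77 ± 0.75 in cultured and 4.27 ± 0.51 in lymphoid samples, a difference of 7.50 (SE 0.22), and its second probe set differed by 3.33. CAVIN3 differed by 5.54 (SE 0.17), with 4.98 in the second probe set. EHD2 had the smallest differences, at 1.28 (SE 0.15) and 2.50.

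All 9 member probe sets were called higher in cultured cells by limma at an adjusted p of 0.001, beside 22% of the 22063 tested. In 8 of the 9 every cultured sample lay above every lymphoid one, which held for 4.54% of probe sets tested, and the representative EHD2 probe set was the exception. The members were chosen on this contrast, so nothing is read from either count. Without Snuggles the CAV1 difference was 8.85 and the CAV2 difference 7.61. Cell kind and culture cannot be told apart in this contrast, since all the lymphoid samples were primary cells, and in bulk samples fewer cells of a type and less RNA per cell cannot be told apart.

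Several of the genes around caveolae were also higher in the cultured cells, but not all. Of the YAP and TAZ genes, 6 of the 7 tested rose and 0 fell, beside 22% of all probe sets tested called higher. Their median difference was 5.02, beside −0.06 over all probe sets tested. In the lymphoid tumors other than Snuggles, CCN1, CCN2, WWTR1 and YAP1 had medians of 4.82, 4.84, 4.10 and 4.88, below every array median. Such genes passed the filter largely through the cultured cells where they are high, so nothing is read from the count or the p values. The matricellular targets CCN1 and CCN2 differed by 7.51 (SE 0.45) and 6.87 (SE 0.35), and the coactivator genes WWTR1 and YAP1 themselves by 5.37 (SE 0.23) and 5.02 (SE 0.29), each higher in cultured cells (limma adjusted p = 7.98e-17 for CCN1, 6.86e-19 for CCN2, 3.24e-21 for WWTR1 and 3.81e-17 for YAP1). Of the accessory genes, 3 of 4 tested rose: the actin crosslinker FLNA, which tethers caveolae to stress fibers, by 1.61 (SE 0.28, adjusted p = 8.15e-06), EHD4, a relative of EHD2, by 0.55 (SE 0.14, adjusted p = 0.000868), and PACSIN3, at 9.09 ± 0.47 in cultured cells (n = 18) and 7.59 ± 0.51 in lymphoid tumors (n = 16; SD; limma adjusted p = 1.11e-09). Of the caveolar receptors, EGFR was higher by 3.42 (SE 0.49, adjusted p = 1.84e-07) and PDGFRB by 1.69 (SE 0.38, adjusted p = 0.00023), out of 3 tested. Their medians in the lymphoid tumors other than Snuggles were 3.88 and 5.52, also below every array median. Both receptors passed the filter largely through the cultured cells, so nothing is read from their count or p values.

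The scaffolds of other membrane domains moved in both directions. STOM, stomatin, was higher in cultured cells by 2.76 (SE 0.44, adjusted p = 1.48e-06) and ERLIN2 by 1.17 (SE 0.23, adjusted p = 3.48e-05), whereas the flotillin FLOT1 was lower, at 9.48 ± 0.71 in cultured cells (n = 18) and 10.80 ± 0.88 in lymphoid tumors (n = 16; SD), a difference of −1.32 (SE 0.26, limma adjusted p = 4.99e-05). The muscle isoforms CAV3 and CAVIN4 passed the filter on low values in none of the comparisons. CAV3 averaged 4.38 in cultured and 4.55 in lymphoid samples, and CAVIN4 averaged 4.12 and 4.14 in the same order. Of the neighbors, MET was higher in cultured cells by 1.54 (SE 0.23, adjusted p = 3.89e-07) and CAPZA2 by 0.68 (SE 0.16, adjusted p = 0.000352), and TES differed by 0.60 (SE 0.21, adjusted p = 0.0122), which missed the threshold of 0.001. Of the mural and fibroblast markers, 9 of 11 rose, with a median difference of 6.20, beside 22% of all probe sets tested called higher. LUM, COL1A1 and PDGFRA had medians of 4.89, 5.04 and 4.74 in the lymphoid tumors other than Snuggles. They passed the filter largely through the cultured cells, so nothing is read from the count. The part of these markers in the members' levels was not tested.

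Among the lymphomas, the family could be compared only in part. Between 6 T-zone and 6 diffuse large B cell lymphomas, the representative probe sets of CAVIN3 and EHD2 passed the filter on low values and the other 7 member probe sets did not. CAVIN3 averaged 6.03 ± 0.58 in T-zone lymphomas and 5.69 ± 0.48 in diffuse large B cell lymphomas (SD, n = 6 each), a difference of 0.34 (SE 0.29). EHD2 averaged 7.25 ± 0.22 in T-zone and 6.96 ± 0.25 in diffuse large B cell lymphomas, a difference of 0.29 (SE 0.18). By limma at an adjusted p of 0.05, 0 of these 2 were called, beside 18.5% of the 21763 probe sets tested. CAV1, below the filter, averaged 4.11 ± 0.19 in T-zone and 4.71 ± 1.63 in diffuse large B cell lymphomas, a difference of −0.60 that became 0.06 without Snuggles. In the same lymphomas, 3 of 5 scaffolds of other domains rose, STOM by 1.68 (SE 0.41, adjusted p = 0.0113), FLOT1 by 1.56 (SE 0.20, adjusted p = 0.000166) and FLOT2 by 1.36 (SE 0.32, adjusted p = 0.0102), and among accessory genes FLNA rose by 1.93 (SE 0.30, adjusted p = 0.000627).

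The lymphoma Snuggles stood apart from the other 15 lymphoid tumors in both caveolins. The 3 CAV1 probe sets read 7.98, 7.28 and 7.52 in Snuggles, against highest values of 4.54, 5.12 and 4.25 among the other 15, and the representative CAV2 probe set read 5.90 against a highest value of 4.66. The second CAV2 probe set, at 5.61, lay inside the range of 4.92 to 5.89 of the other 15, as did CAVIN3 at 6.02 (4.58 to 6.89) and EHD2 at 6.87 (6.68 to 8.19). Some of the fibroblast matrix genes were high in the same tumor and others were not. Snuggles was the highest of the 16 in 6 of 11 mural and fibroblast markers, and 662 of all 15115 genes, or 4.38%, had their highest value there. The proteoglycans LUM and DCN read 10.51 and 10.77 in Snuggles, against highest values of 5.72 and 6.80 in the other 15, and the collagens COL1A1, COL1A2 and COL3A1 read 10.37, 11.65 and 9.91, against 7.73, 9.62 and 7.76. PDGFRA, the 6th, exceeded the next tumor by 0.05, while the other 5 lay within the range of the others: the collagen COL6A3 at 5.96, PDGFRB at 5.43, THY1 at 8.09 and the smooth muscle genes ACTA2 and TAGLN at 5.90 and 7.57.

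The mean of the mural and fibroblast list was 8.34 in Snuggles and 5.56 to 7.07 in the other 15 lymphoid tumors, and 10.11 to 12.17 in cultured cells. In none of the 9 endothelial markers was Snuggles the highest, and PECAM1, CDH5 and VWF read 8.35, 5.39 and 5.30 there, within the range of the others. Of the 9 lymphocyte markers Snuggles was the highest in 1, MS4A1, at 12.40 against 12.38 in the next tumor, while CD79A, at 8.54, lay below the median of the other 15, which was 8.83. The actin 3′ to 5′ difference of Snuggles was 1.55 and its array median 5.64, both inside the range of the other arrays. The part of fibroblast RNA in its caveolin signal was not tested.

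**Figure D3:**
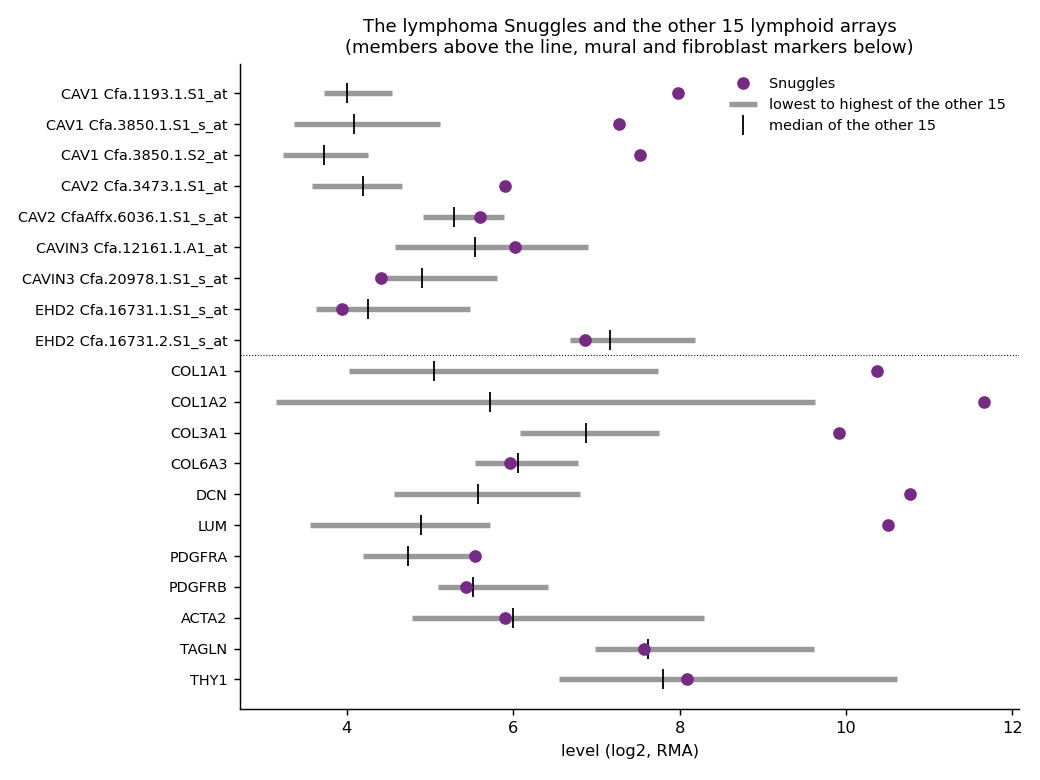
Log2 level (horizontal axis) of the 9 member probe sets (above the dotted line) and of 11 mural and fibroblast markers (below it) in the lymphoma Snuggles (circles), with the range (gray bars) and median (ticks) of the other 15 lymphoid tumors. Snuggles lies to the right of the range in the 3 CAV1 probe sets, the first CAV2 probe set and in COL1A1, COL1A2, COL3A1, DCN and LUM, and just beyond it in PDGFRA.

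Within hemangiosarcoma, 2 relations were tested that the choice of members did not use, breed and covariation between the members. The study's interest in golden retrievers made breed a natural division: 6 lines from golden retrievers were set against 4 from other breeds or a cross. CAV1 averaged 13.00 ± 0.59 in golden retriever lines (SD, n = 6) and 12.96 ± 0.59 in the others (SD, n = 4), a difference of 0.04 (SE 0.35, 95% interval −0.72 to 0.80, limma adjusted p = 0.999). CAV2 differed by 0.16 (SE 0.30, interval −0.50 to 0.82), CAVIN3 by −0.03 (SE 0.23, interval −0.53 to 0.48) and EHD2 by −0.11 (SE 0.32, interval −0.81 to 0.58), each with a limma adjusted p of 0.999. The low lines fell on both sides, with Tucker and Journey among the golden retrievers and Joey among the others. At an adjusted p of 0.1, 0 of 9 member probe sets were called, beside 0% of the 22206 tested by limma, of which 741 had an unadjusted p under 0.05.

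The members were then paired over the 10 hemangiosarcoma lines, in 6 pairs. CAV1 and CAV2 went together with r = 0.95 (permutation p = 0.00029, adjusted over 6 pairs 0.00174) and rho = 0.78 (permutation p = 0.0107, adjusted 0.064). Without Tucker and Joey, the lines farthest from the CAV1 median, r was 0.86 over 8 lines (exact permutation p = 0.0111, adjusted 0.0667). Journey lay close to those in CAV2, at 11.53, and between them and the other lines in CAV1, at 12.57. Without Journey as well, r was 0.57 and rho 0.39 over 7 lines (exact permutation p = 0.174 and 0.396), an alternative chosen after the data were seen. The relation rests on the lines low in both caveolins. The actin 3′ to 5′ difference was 2.52 in Tucker and 2.26 in Joey, at the upper end of the 1.31 to 2.52 of all hemangiosarcoma lines, and 1.48 in Journey, and its part in the relation was not tested. The mean of the mural and fibroblast list was 11.02 in Tucker, 11.09 in Joey and 11.19 in Journey, inside the range of the other lines.

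CAV1 and EHD2 had r = 0.75 (permutation p = 0.0138, adjusted 0.0413) and rho = 0.65 (permutation p = 0.049, adjusted 0.147), but r = 0.34 without Tucker and Joey (exact permutation p = 0.411, adjusted 0.616), so that relation rests on those lines. CAV2 and EHD2 had r = 0.60 (permutation p = 0.0678, adjusted 0.136). No pair with CAVIN3 was called over these lines: r was 0.08 with CAV1, 0.21 with CAV2 and −0.03 with EHD2, with permutation p of 0.816, 0.55 and 0.93 and adjusted values of 0.93, 0.824 and 0.93. The last became 0.66 without ChadG4 and Dal4, the lines lowest in CAVIN3 (exact permutation p = 0.0774, adjusted 0.232).

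**Figure D4:**
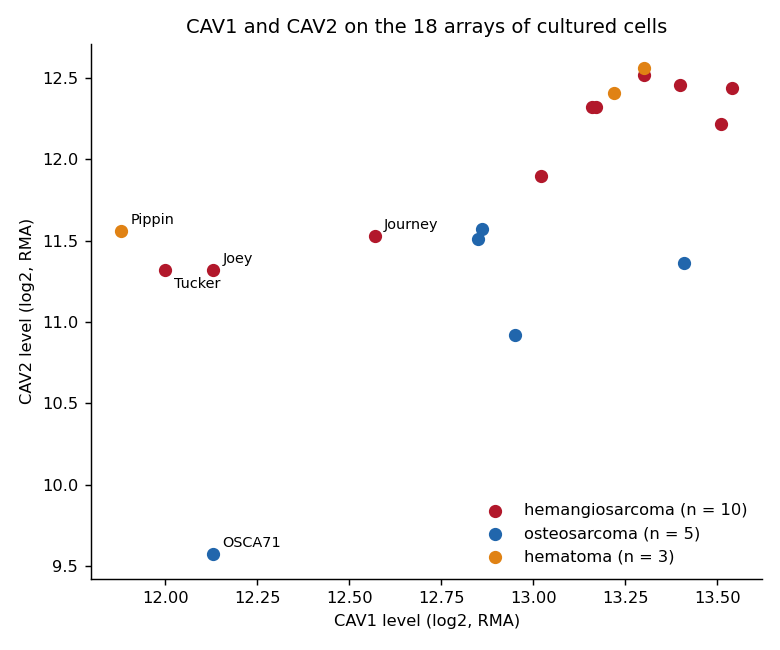
Log2 level of CAV1 (horizontal axis) and CAV2 (vertical axis) on the 18 arrays of cultured cells, 1 point an array, colored by tumor type. Tucker, Joey and Journey lie low in both genes among the hemangiosarcoma lines, the hematoma Pippin lies beside them, and the osteosarcoma line OSCA71 lies lowest in CAV2, at 9.57.

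As a description, the genes whose pattern was most like that of CAV1 over the 18 cultured arrays were looked up among 9338 other genes with 1 probe set each. These were TMED1, a cargo receptor of the early secretory pathway, with r = 0.77 and rho = 0.73, AGPAT4, an acyltransferase of phospholipid synthesis (r = 0.75, rho = 0.72), ARHGAP24, a RAC-directed GTPase activating protein (r = 0.74, rho = 0.86), GNG2, a G protein gamma subunit (r = 0.73, rho = 0.70), and PRSS23, a secreted serine protease (r = 0.73, rho = 0.65). CAV2 came 16th with r = 0.67 and EHD2 85th with r = 0.56, whereas CAVIN3 came 2594th with r = 0.14. The CAVIN3 probe sets had r of 0.07 with each other over these arrays, so that rank holds for its representative probe set only. The 18 arrays hold 3 kinds of cultured cell and share their processing.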

How the data were processed

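RNA of cultured or primary canine cells was hybridized to Affymetrix Canine_2 arrays, 1 per dog. The authors deposited log2 values that, by the submitters' processing notes, were made with RMA in affy, versions not given in the sources used here; no further normalization was applied. Groups came from the labels. Of 43035 probe sets, 175 controls (AFFX and also RPTR reporter controls) were left out; 29254 carried 1 gene symbol, 439 several and 13167 none. Testing was limited to probe sets that exceeded the array median in a number of arrays no smaller than the smaller group. Comparisons used lmFit and eBayes of limma 3.58.1 (R 4.3.3) with Benjamini-Hochberg adjustment over all probe sets tested, at adjusted p of 0.1 (hematoma, breed), 0.05 (osteosarcoma, lymphomas) and 0.001 (lymphoid tumors), and 95% intervals, given for the breed contrast, are those of that fit. Pairs of members were tested by 100000 permutations in Python 3.11.15 with numpy 2.4.6, or over all orderings of 8 or 7 lines. The fits were tested on simulated data.

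Named are all members with a probe set, up to 4 called genes per list with the largest differences, the 2 nearest genes on each side of the CAV1 and CAV2 pair, and the 5 genes most like CAV1. The members and lists were chosen with earlier results of these data known. The muscle isoforms, the markers named one by one, and the lymphoma Snuggles were named after their values were seen. Alternatives were no filter, a trend with a robust prior, centered or quantile-normalized arrays, array weights, all arrays in 1 fit, golden retriever lines or arrays only, the lymphoid group without leukemias, and other probe sets of a gene. Each array was left out in turn in the hematoma, osteosarcoma and breed contrasts. Leaving out Snuggles, or Tucker, Joey and Journey together, was added after the data were seen. No sequence is shown, as no sequence table was used here. A sample that the methods describe as run on 2 chips could not be told from the others by its label.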

Additional observations from a re-analysis of the deposited data

Results flagged for a closer look

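Of 36 tests for a sample far from the others of its group (9 member probe sets in the 4 groups of 4 to 10 arrays), 4 marked one, and chance marks about 1 in 20. Among the 6 diffuse large B cell lymphomas, Snuggles lay far above the others in CAV1 at 7.98, in another CAV1 probe set at 7.52 and in CAV2 at 5.90, with gaps to the next tumor of 0.806, 0.897 and 0.732 of the whole range. Among the 6 T-zone lymphomas, Newman lay below the others in the second EHD2 probe set at 3.85, a gap of 0.627 of the range. Differences between Snuggles and the other lymphoid tumors in fibroblast genes are given above, and their part was not tested.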

How the results depend on the processing

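Of 305 alternative values for member differences, 22 had the other sign than the reported value, none of them among values called; of 7 for pair correlations, 3 had. CAV1 against osteosarcoma was −0.04 without OSCA71, and CAV1 against hematoma −0.28 without Pippin. CAV2 in hemangiosarcoma against osteosarcoma lines was 0.69 without OSCA71 and 1.11 with golden retriever lines only, where 1 member probe set was called in place of 2 and 3619 probe sets in place of 6365. Hemangiosarcoma against hematoma gave 62 calls, 33 with array weights and 181 with all arrays in 1 fit, and 7 (without Baxter) to 200 (without Pippin) with 1 array left out, with 39 without ChadG6. The breed contrast gave 0 calls, and 0 to 1 with 1 line left out (1 without ChadG4 or DD1). Of the 2 member pairs called in hemangiosarcoma, 0 remained without the lines farthest from the median, and the correlation of CAV1 and CAV2 was 0.57 without Tucker, Joey and Journey. The causes were not tested. No paired analysis was possible because the labels give 1 array per dog. The number of arrays, 3 hematoma cultures above all, limits precision, and in lymphoid tumors other than Snuggles CAV1 lay below the array median.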
